A study of Homo sapiens with 2 samples.

Results

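Mitotic kinesins are motor proteins that build the spindle, move chromosomes along it and divide the cell at the end of mitosis. Their genes were examined in MDA-MB-231 cells grown in 3D on a laminin-rich extracellular matrix, with and without ionizing radiation (IR). The list held 10 genes chosen by name, with earlier results of these data known. They were KIF20A, KIF20B, KIF11, KIF23, KIF2C, KIF18A, KIFC1, KIF4A, KIF14 and KIF15, looked up by current or former symbol. On the arrays 9 of them had a probe under such a name, with 11 probes in all among 24456 usable gene probes, and none of the 11 was marked as poor by the scanner. KIF2C and KIF15 had 2 probes each, and KIF4A was not analysed here.

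The line derives from a triple-negative breast carcinoma. Cells without radiation (0 Gy) were compared with cells given a daily dose of 2 Gy for 4 days (2 Gy x 4). Each condition had 1 array, so that every ratio below compares a single pair of arrays, with no replicate check and no test across samples. Both cultures grew on Corning Matrigel, and the sources used here do not give the interval between the last dose and RNA isolation. The chip, a Toray 3D-Gene oligo array, was read in the Cy5 colour alone, and each spot gives a single brightness.

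Motors of this group take up different tasks. KIF11 and KIF15 push the spindle poles apart, KIFC1 is a minus-end motor that focuses the poles, KIF18A and KIF2C shorten microtubule ends at the chromosomes, and KIF20A, KIF20B, KIF23, KIF14 and KIF4A serve the central spindle and cytokinesis. Genes of this kind are known to be transcribed mainly in G2 and mitosis, through the cell cycle homology region and CCAAT boxes of their promoters.

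In the main setting, set out below, KIF20A, KIF2C and KIFC1 had a higher signal in the IR-treated cells by at least 1.5-fold. There KIF20B, KIF11, KIF18A, KIF23 and KIF15 lay within 1.2-fold of the untreated level. KIF14 stood between them and moved with the background step, and KIF20B, KIF11 and KIF23 moved with local background subtraction, as given below. In the main setting the background was corrected by limma's normexp method, a constant of 50 was added to every signal and the arrays were quantile-normalized. The ratio of 2 Gy x 4 over 0 Gy ranged from 0.995 to 1.85 over the 11 probes, with a median of 1.16, while the median over all 22069 probes detected on both arrays was 1.009. A probe was called detected where its intensity exceeded the 95th percentile of the blank spots, which was 14.2 on the 0 Gy and 16.0 on the 2 Gy x 4 array. All 11 kinesin probes met this on both arrays, so no probe entered through 1 condition alone. At least 1.5-fold higher were 4 of the 11 probes, against 0.322% of all detected probes, and no kinesin probe was lower by that margin, against 1.16%. Since the list was chosen with earlier results of these data known, its distance from these shares is not independent of the data. No kinesin probe reached 2-fold in this setting, which 0.0181% of all probes did. The ratio was above 1 for 10 of 11 probes, a share that was 55.3% among all probes. In bulk RNA a larger share of cells in mitosis and more transcript per cell cannot be told apart.

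**Figure D1:**
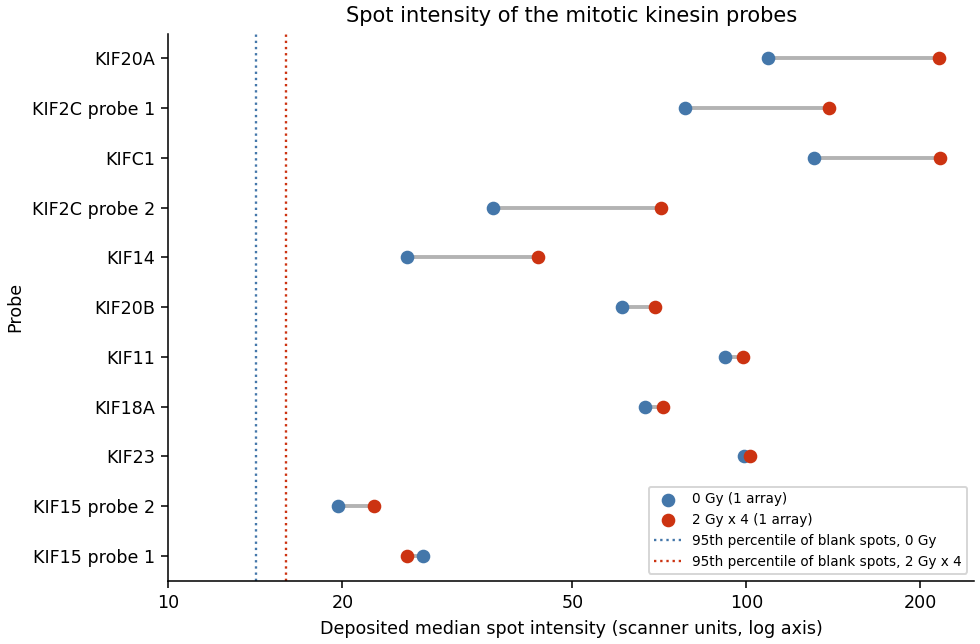
Deposited median spot intensity (x axis, scanner units, log scale) of the 11 mitotic kinesin probes (y axis, in order of the ratio in the main setting) on the 0 Gy array (blue) and the 2 Gy x 4 array (red), with the 95th percentile of blank spots of each array as dotted lines. The upper 5 probes show a wide gap between the arrays, the lower 6 a narrow one, and KIF14 and both KIF15 probes lie close to the blank spots.

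Promoter sequences are shown for the genes with the highest and the lowest ratios, to let their letters be compared. They are those of RefSeq (GRCh38.p14), from 250 bases before to 50 bases after the transcript start, 5′ to 3′ on the strand of the gene. Capitals mark the cell cycle homology region (TTTGAA or TTTAAA) and the CCAAT box, on either strand. KIF20A lies at chr5:138178862-138179161 on the plus strand, KIFC1 at chr6:33391573-33391872 on the plus strand, KIF23 at chr15:69414099-69414398 on the plus strand and KIF15 at chr3:44761544-44761843 on the plus strand.
KIF20A: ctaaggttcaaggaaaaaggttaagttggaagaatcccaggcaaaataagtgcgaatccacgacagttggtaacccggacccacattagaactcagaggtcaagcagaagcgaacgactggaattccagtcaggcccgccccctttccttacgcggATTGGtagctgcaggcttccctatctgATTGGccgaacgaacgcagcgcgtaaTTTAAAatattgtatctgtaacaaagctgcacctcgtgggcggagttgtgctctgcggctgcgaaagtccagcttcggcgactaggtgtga
KIFC1: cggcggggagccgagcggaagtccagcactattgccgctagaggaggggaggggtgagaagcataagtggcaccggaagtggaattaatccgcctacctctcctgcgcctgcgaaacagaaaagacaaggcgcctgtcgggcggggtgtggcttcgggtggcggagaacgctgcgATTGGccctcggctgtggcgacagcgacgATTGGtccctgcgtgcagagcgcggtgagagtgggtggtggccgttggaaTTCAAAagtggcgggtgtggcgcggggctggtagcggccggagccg
KIF23: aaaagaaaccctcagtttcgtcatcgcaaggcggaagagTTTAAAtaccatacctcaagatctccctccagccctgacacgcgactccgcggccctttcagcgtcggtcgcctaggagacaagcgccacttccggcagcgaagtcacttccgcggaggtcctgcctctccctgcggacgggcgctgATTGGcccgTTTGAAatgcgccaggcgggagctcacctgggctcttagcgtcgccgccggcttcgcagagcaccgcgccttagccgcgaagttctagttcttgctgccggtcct
KIF15: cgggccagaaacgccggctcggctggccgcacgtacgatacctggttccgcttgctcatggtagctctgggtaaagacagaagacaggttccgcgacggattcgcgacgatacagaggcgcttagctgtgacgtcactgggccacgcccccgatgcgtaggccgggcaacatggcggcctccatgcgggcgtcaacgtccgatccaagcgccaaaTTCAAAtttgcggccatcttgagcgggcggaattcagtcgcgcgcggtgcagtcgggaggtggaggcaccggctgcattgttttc

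The cell cycle homology region was found in the promoters of all 10 listed genes, KIF4A included, and in 24.0% of 35116 RefSeq promoters of the same length. CCAAT was found in 8 of 10, against 34.6%, and both motifs together in 8 of 10, against 9.27%. The genes without CCAAT were KIF2C and KIF15, whose gene ratios were 1.587 and 1.025. The GC box GGGCGG, the core of the motif bound by Sp1, occurred in 9 of 10 promoters and in 45.0% of all, and KIF23 had none in this window. In these 10 promoters no matches of different motifs overlapped, and TTTAAA, which reads the same on both strands, was counted once. In the KIF20A promoter TTTAAA began 41 bases before the start, and the CCAAT boxes began at positions -94 and -67. In KIFC1 the TTTGAA letters stood on the opposite strand at positions 5 to 10, in KIF23 at positions -55 to -50 with a TTTAAA further upstream, and in KIF15 on the opposite strand at positions -35 to -30. A match describes letters only, and the same elements occurred in genes with high and with low ratios.

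Among the motors of the spindle poles, KIFC1 was higher in the IR-treated cells in the main setting, while KIF11 and KIF15 lay near the untreated level. KIFC1, or HSET, cross-links spindle microtubules and clusters surplus centrosomes. The spot intensities of KIFC1 were 131 in untreated and 216 in IR-treated cells, and after normalization the ratio was 1.62, a value reached by 0.145% of all probes. The values that the authors deposited, in which the blank level is subtracted and each array is scaled to a median of 25, gave KIFC1 56.9 and 112.6, a ratio of 1.98. KIFC1 was the single called probe whose direction turned in an alternative. The brightness around its spot was 22.6 on the 0 Gy and 183 on the 2 Gy x 4 array, and when this local background was subtracted the ratio became 0.398. Across gene probes the local background followed the intensity of the spot, with a Spearman correlation of 0.928 on the 0 Gy and 0.909 on the 2 Gy x 4 array. Its subtraction put 17.5% of all probes 1.5-fold or more above the untreated level and 17.5% as far below it, and among the kinesin probes 5 above and 2 below. The part of the local background in the KIFC1 value was not tested.

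KIF11 (Eg5), which slides antiparallel microtubules and is the target of spindle inhibitors, stood at 91.9 in untreated and 98.7 in IR-treated cells, and its ratio was 1.13. With local background subtraction the KIF11 ratio was 1.85. KIF15, which can hold the poles apart when KIF11 is blocked, was measured near the blank spots. The first KIF15 probe stood at 27.5 and 25.9. Its ratio of 0.995 was the only one of the 11 below 1, and it was 1.03 with median scaling and 1.04 with scaling to the 75th percentile. The second KIF15 probe stood at 19.65 and 22.65, and its ratio was 1.06. In the deposited values the KIF15 probes had ratios of 0.9275 and 1.41, a distance of 0.608 on the log2 scale, whereas the 2362 genes with exactly 2 detected probes had a median distance of 0.299. In the main setting the KIF15 distance was 0.085, against a median of 0.13, with the ratios on either side of 1. These probes therefore give no settled direction for KIF15.

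Of the motors at the chromosomes, KIF2C was higher in IR-treated cells by both of its probes. KIF2C, also called MCAK, removes tubulin from microtubule ends and corrects faulty attachments. Its first probe stood at 78.4 and 139, a ratio of 1.64, and its second at 36.5 and 71.2, a ratio of 1.54. The distance between them was 0.0913 on the log2 scale, against a median of 0.13 over genes with 2 probes. In the deposited values the ratios were 2.20 and 2.75, at a distance of 0.324, against a median of 0.299. Both stayed above 1 in every setting tried, but not always at 1.5-fold. The lowest were 1.14 for the first with local background subtraction and 1.41 for the second with a correction for position on the chip. The local background rose from 48.5 to 115.4 at the first KIF2C probe and from 10.7 to 45.3 at the second. With its subtraction neither reached 1.5-fold, the second standing at 1.45. KIF18A, which dampens chromosome oscillation, stood at 66.7 and 71.7, a ratio of 1.12, and at 1.24 in the deposited values.

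The motors of the central spindle and cytokinesis were uneven. KIF20A, which carries the chromosomal passenger complex to the central spindle, stood at 109 in untreated and 215 in IR-treated cells. Its normalized signal was 143 and 264.5, a ratio of 1.85, ranked 7th highest among the 22069 probes. The deposited values of KIF20A were 46.5 and 112.1, a ratio of 2.41. Over all settings tried the KIF20A ratio was lowest at 1.81, with the position correction. Its local background was 27.2 on the 0 Gy and 68.4 on the 2 Gy x 4 array, and with subtraction the ratio was 2.18. KIF20B, a cytokinesis motor related to KIF20A, stood at 61.0 and 69.6, a ratio of 1.16. That ratio became 4.21 when local backgrounds of 56.4 and 62.8, close to the spot itself, were taken off. KIF23 (MKLP1), the motor subunit of centralspindlin, stood at 98.9 and 101.4, a ratio of 1.10. The local background of KIF23, at 88.1 and 92.2, was also close to its spot, and with its subtraction the ratio was 1.51. In the deposited values neither KIF20B, at 1.33, nor KIF23, at 1.17, reached 1.5-fold.

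KIF14, which binds citron kinase and the bundling protein PRC1 at the midbody, stood at 25.9 in untreated and 43.6 in IR-treated cells, 1.69-fold apart before any processing. The main setting gave KIF14 a ratio of 1.32, ranked 354th, since the added constant is large beside a signal of this size. With no constant added the ratio was 2.41, and from the deposited values it was 2.56, ranked 37th. With KIF14 included, 5 of 11 kinesin probes were at least 1.5-fold higher in the deposited values, against 4.4% of all probes. With no constant added they were also 5 of 11, against 2.5%.

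**Figure D2:**
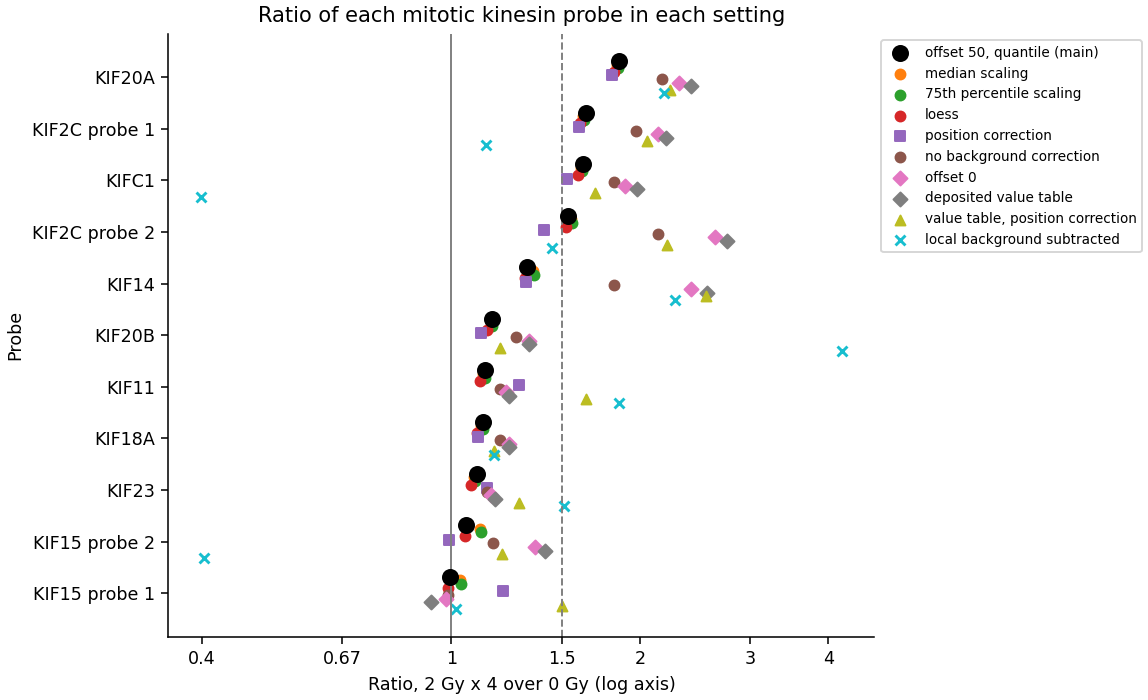
Ratio of 2 Gy x 4 over 0 Gy (x axis, log scale) of each mitotic kinesin probe (y axis) in the main setting (large black points) and 9 alternatives (other symbols), with lines at ratios of 1 (solid) and 1.5 (dashed). The probes of KIF20A and KIF2C stay above 1 throughout, KIFC1 falls to 0.398 only where the local background is subtracted, and KIF14 lies at 1.32 in the main setting and at 2.56 in the deposited values.

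**Figure D3:**
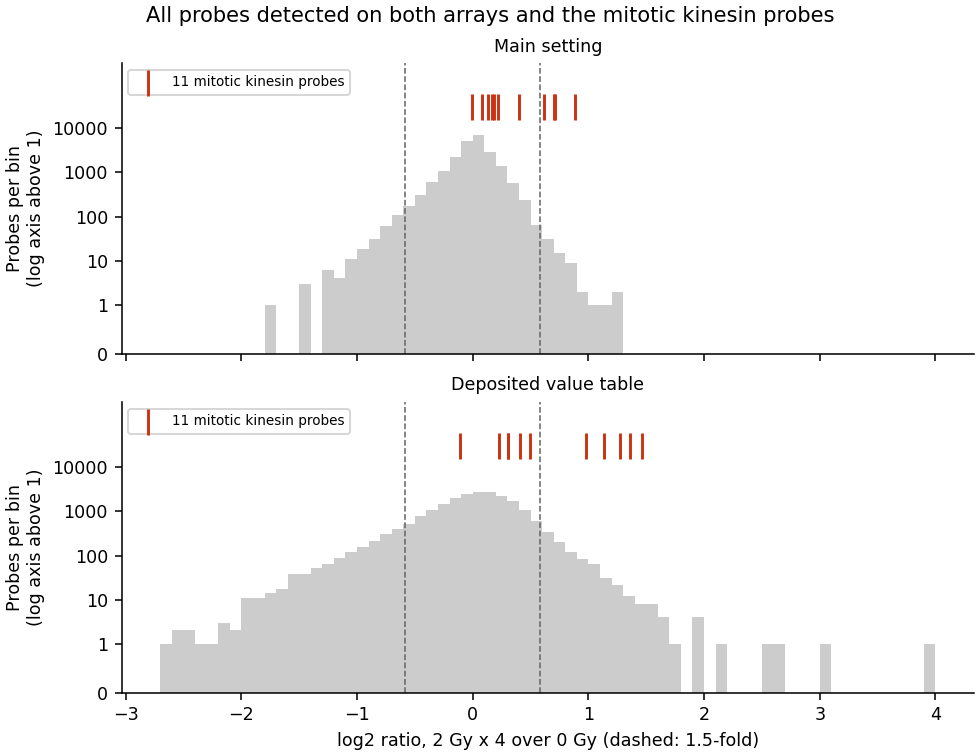
Histogram of the log2 ratio (x axis, 2 Gy x 4 over 0 Gy, bins of 0.1) of all 22069 probes detected on both arrays (grey bars, number of probes per bin on a log axis) in the main setting (top) and in the deposited value table (bottom), with the 11 mitotic kinesin probes as red ticks and 1.5-fold as dashed lines. In the main setting 4 ticks lie beyond the upper line, in the deposited values 5, and none lies beyond the lower line.

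The place of a spot on the chip moved with these ratios. Of the 104 columns, the last 26 had a median ratio of 0.9355 over 5376 probes and the other columns 1.02 over 16693 probes. KIF23 in column 95, KIF11 in column 96 and the first KIF15 probe in column 100 lay in those last columns, with ratios from 0.995 to 1.13. The other 8 kinesin probes ranged from 1.06 to 1.85, and the part of position in this difference was not tested. After the median log2 ratio of neighbouring detected probes was taken off, KIF11 had a ratio of 1.28, KIF23 of 1.14 and the first KIF15 probe of 1.21, while the second KIF15 probe, in column 17, had 0.991. KIF20A then stood at 1.81, the first KIF2C probe at 1.60 and KIFC1 at 1.53, and these were the 3 kinesin probes still at least 1.5-fold higher, against 0.199% of all probes. The same correction of the deposited values left all 11 probes above the neighbouring median, from 1.17 for KIF18A to 2.55 for KIF14. At least 1.5-fold higher were then 6 of the 11, with KIF11 at 1.64, against 3.25% of all probes. The first KIF15 probe, 1.5 after rounding, fell just short and was not counted.

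**Figure D4:**
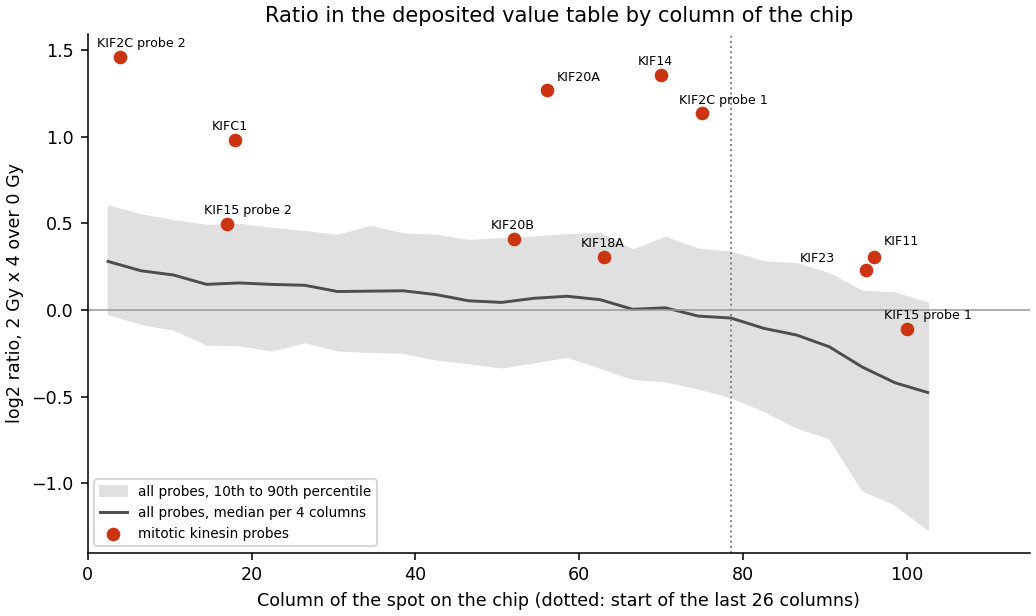
The log2 ratio in the deposited value table (y axis, 2 Gy x 4 over 0 Gy) against the column of the spot on the chip (x axis), with the median of all detected probes per 4 columns (line), their 10th to 90th percentiles (band) and the mitotic kinesin probes (red points). The median of all probes declines towards the last 26 columns, where KIF11, KIF23 and the first KIF15 probe lie.

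Precision could be gauged only within the arrays. A control sequence spotted 24 times on each chip had log2 ratios of the spot intensity with a median of -0.331 and an SD of 0.181 over its spots, the latter equal to 1.13-fold. This spread holds for unprocessed intensities of 1 sequence and gives no limit for the normalized kinesin ratios. Differences between cultures are not covered by this figure.

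Genes whose proteins load, recruit or regulate these motors were set beside them, each by the mean log2 ratio of its detected probes. This list and those that follow were also chosen with earlier results of these data known. Of 26 such genes 25 were detected on both arrays, 22 had a ratio above 1, against 55.4% of all genes, and 4 were at least 1.5-fold higher, against 0.298% of all 17778 genes detected. None was lower by that margin, against 1.01%. The median ratio was 1.13, beside 1.16 for the 9 kinesin genes and 1.01 for all genes. CDCA8 (borealin), part of the passenger complex that KIF20A transports, had the highest ratio at 2.08, followed by PRC1, the bundling protein that KIF4A and KIF14 bind, at 1.73. AURKA, the spindle pole kinase, had a ratio of 1.68 and AURKB, the passenger complex kinase that controls KIF2C, of 1.54. Of the same complex, BIRC5 had 1.449 and INCENP 1.057, neither called in the main setting, and 1.77 and 1.095 in the deposited values. Both were named after their values were seen. The AURKB call was lost with loess, at 1.494, and with the position correction, at 1.45, and local background subtraction left AURKA at 1.39 and PRC1 at 1.04. The lowest ratios were those of ECT2 (0.887), an exchange factor that centralspindlin activates, MAPRE1 (0.954), the plus-end protein EB1, and NEK6 (0.968), a kinase of KIF11. Also named after their values were seen were RACGAP1, which forms centralspindlin with KIF23, at 1.10, and TPX2, which loads KIF11 and KIF15 on the spindle, at 1.13. TPX2 lay in column 101, and with the position correction its ratio was 1.34, beside 1.28 for KIF11. FOXM1, a transcription factor of G2 genes also picked after the fact, had 1.31 in the main setting and 2.07 from the deposited values. FOXM1 lay in column 9, and with the position correction these ratios became 1.201 and 1.669. Without that correction, MYBL2 of the same partner list had 1.051 in the main setting and 1.129 in the deposited values. LIN54 had 1.048 and 1.087 in the same order, and LIN9 had 1.16 and 1.482. MYBL2, LIN54 and LIN9 were likewise named after their values were seen.

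Other members of the kinesin superfamily and their accessory chains lay near the untreated level in the main setting. Of 37 such genes 34 were detected on both arrays and none reached 1.5-fold in either direction in the main setting, which 0.298% of all genes did upwards and 1.01% downwards, so that a count of 0 is near the share of all genes. Their ratios ranged from 0.831 to 1.25 with a median of 1.013. Among them CENPE, the kinetochore motor that brings chromosomes to the metaphase plate, had a ratio of 1.16, and in the deposited values, at 1.545, it was the single one of these genes at least 1.5-fold higher, while KIF16B, at 0.5705, was the single one as far below, beside shares over all genes of 3.95% higher and 6.48% lower. KIF18B, a depolymerase of astral microtubules, and KIF22, a chromosome arm motor, had ratios of 0.941 and 1.06. The 6 of these genes that act in mitosis or cilium disassembly had a median ratio of 1.03. In the deposited values their median was 1.215, beside 1.33 for the mitotic kinesin genes, 1.241 for the partner genes and 1.031 for all genes. There the 6 ran from 0.795 for KIF2B to 1.545 for CENPE, with KIF18B at 0.8125. KIF24, at 1.315, had spot intensities of 14.8 and 16.5, close to the blank limits of 14.2 and 16.0. CENPE, KIF18B, KIF22, KIF2B and KIF24 were named after their values had been seen.

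Genes of DNA replication, which act before mitosis, were compared as markers of another cycle phase. They are called licensing genes here, though some of them, such as PCNA, CDC45 and the GINS genes, act after licensing itself. All 15 were detected, 13 had a ratio above 1, against 55.4% of all genes, and their median was 1.125, beside 1.16 for the kinesin genes and 1.01 for all genes. None reached 1.5-fold, which with 0.298% of all genes higher is no result about the licensing genes. PCNA, the sliding clamp of DNA polymerase, had a ratio of 1.29, GINS4 of 1.29 and CDC45, a subunit of the replicative helicase, of 1.21. The lowest were MCM5 at 1.007, MCM7 at 0.97 and MCM2 at 0.937, all subunits of the same helicase. The difference between these lists was not tested, since 1 array per condition gives no error for it.

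**Figure D5:**
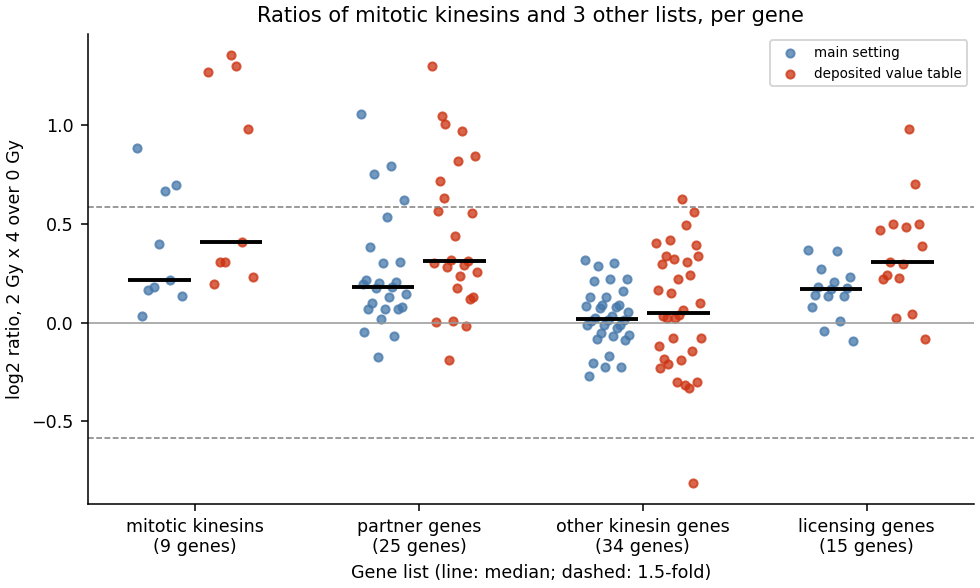
The log2 ratio per gene (y axis, 2 Gy x 4 over 0 Gy) of 9 mitotic kinesins, 25 partner genes, 34 other kinesin genes and 15 licensing genes (points) in the main setting (blue) and the deposited value table (red), with medians as black lines and 1.5-fold as dashed lines. Among these 4 lists, in the main setting, only kinesins of the mitotic list and partner genes lie above 1.5-fold.

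Levels of the whole arrays and of the markers of the line were as follows. Of all gene probes 93.4% on the 0 Gy and 91.5% on the 2 Gy x 4 array exceeded the blank limit. VIM, CD44, EGFR and CAV1, which mark this mesenchymal-like line, were detected on both arrays by every probe, with EGFR at 4.95 and 3.93 times the blank limit. ESR1, the estrogen receptor, was not above blank spots on either array, and PGR was above them for 1 of 2 probes on the 0 Gy array only, at 1.04 times the limit. The epithelial genes CDH1, at 12.7 and 9.67 times the limit, and EPCAM were also detected. The leukocyte gene PTPRC was not above blank spots, and the endothelial gene PECAM1 stood at 1.97 and 1.18 times the limit.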

How the data were processed

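Gene expression was measured on 1 array of untreated MDA-MB-231 cells and 1 array of cells treated with 2 Gy x 4. For each array the authors deposited a scanner file of spot intensities, on a linear scale, without background subtraction or scaling. They also deposited a value table of processed intensities, for which the sources used here give no method. Recomputed from the scanner files, it equals the intensity less a trimmed mean of blank spots (their middle 90%), scaled to a median of 25, within 0.494% for values above 10.

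Median spot intensities were corrected with limma 3.58.1 in R 4.3.3 (normexp, offset 50) over all spots and quantile-normalized over 24456 gene probes, leaving out 4 flagged NG on either array. Ratios are on this scale, where the offset pulls those of dim probes towards 1. Ratios and lists were computed in Python 3.11.15 (numpy 2.4.6, pandas 2.3.3). Probes were named by the platform annotation and the scanner names, updated through the RefSeq gene table of GRCh38.p14, which gave 22672 probes 1 symbol each. Probes with several symbols or none were not named.

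With 1 array per condition no test could be made, and precision is limited by the number of arrays. A call was a ratio of at least 1.5-fold. To correct for position, the median log2 ratio of detected probes within 11 rows and 8 columns was taken off, taking the printing blocks as stacked in file order. Every kinesin probe was reported. Of each other list, the 3 highest, the 3 lowest and all called genes were to be named. The members and lists were chosen with earlier results of these data known. Alternatives were median and 75th percentile scaling, loess, offset 0, no background correction, local background subtraction, the deposited value table, position correction of either, a 2-fold rule, no detection filter and the brightest probe. The steps were run on simulated data with known ratios, in which both arrays had the same local background. That run could not judge the subtraction of a local background that differs between arrays. For the main setting it checked only that ratios rose in the order of the known ones.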

Additional observations from a re-analysis of the deposited data

How the results depend on the processing

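Over the 9 alternatives of scaling, background, source and position, the number of kinesin probes at least 1.5-fold higher ranged from 3 to 6. The main setting gave 4, beside 0.322% of all probes, and a 2-fold rule gave 0, beside 0.0181%. The count of 3 came with the position correction, beside 0.199% of all probes. That of 6 came from the deposited values with position correction, beside 3.25%. Local background subtraction gave 5, beside 17.5%. The probes counted differed between settings. With local background subtraction the 5 were KIF20A, KIF20B (4.21), KIF14 (2.27), KIF11 (1.85) and KIF23 (1.51). KIFC1 and both KIF2C probes were not among them. Median scaling moved the median of all probes to a log2 ratio of 0.052 and scaling to the 75th percentile to 0.058, beside 0.014, and neither changed a kinesin call. The first KIF15 probe changed sign under both, with local background subtraction and with either position correction. The second KIF15 probe had a ratio of 0.991 with the position correction and 0.402 with local background subtraction. KIFC1 turned to a log2 ratio of -1.33 with local background subtraction, where the KIF2C probes had ratios of 1.14 and 1.45. The median log2 ratio of the kinesin probes, 0.21 in the main setting, was 0.44 with offset 0, 0.54 with local background subtraction, 0.50 in the deposited values and 0.71 there with position correction. That of the partner genes, 0.18, was 0.47 with local background subtraction, 0.31 in the deposited values and 0.43 there with position correction. For the other kinesin genes, 0.018 became 0.14 with local background subtraction. For licensing genes, 0.17 became 0.29 with offset 0, 0.26 without background correction, 0.66 with local background subtraction and 0.31 in the deposited values. Counts of list genes at least 1.5-fold higher, a result added after the values had been seen, were 4 of the partners, 0 of the other kinesins and 0 of the licensing genes. Local background subtraction gave 9, 7 and 8, beside 17.0% of all genes, the deposited values 8, 1 and 2, beside 3.95%, and those with position correction 11, 2 and 1, beside 2.97%. Offset 0 gave 6, 1 and 2, beside 2.22%, and no background correction 6, 0 and 1, beside 0.799%. The partner count fell to 3 with loess and with the position correction, both without AURKB. The other medians moved by less than the median absolute deviation of their own list, which was 0.186 for the kinesin probes. The cause of these shifts was not tested. Signal over background limits KIF15 and KIF14 most, whose untreated intensities were below 30 against a blank limit of 14.2.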

Other observations

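Of the other kinesin genes, 31 were left after those of mitosis and cilium disassembly, a mixed set of transport motors, light chains, ciliary motors and signalling members. Of these 28 were detected on both arrays, with ratios from 0.831 to 1.247, and 16 were above 1, beside 55.4% of all genes. KLC1, a light chain of kinesin-1, had the highest ratio at 1.247, followed by KIF1B, a transporter of mitochondria and synaptic vesicle precursors, at 1.235. The lowest were KIFC3, a minus-end motor, at 0.831, KIFAP3, the accessory subunit of kinesin-2, at 0.856 and KIF16B, an endosome motor, at 0.856. KIFAP3 lay in column 102 and KIF16B in column 104, and with the position correction their ratios were 0.921 and 1.03. KIF5B, a heavy chain of kinesin-1, had a ratio of 0.867. It was named after its value had been seen. KIF2A, a depolymerase at spindle poles that also acts in interphase, was among the 3 highest of all other kinesin genes at 1.22.

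A probe named for KIF4B, an intronless copy of KIF4A with a near-identical coding sequence, stood at 47.3 in untreated and 43.55 in IR-treated cells, a ratio of 1.012, and at 0.988 in the deposited values. Whether it also binds KIF4A transcripts was not tested, and it was not counted among the mitotic kinesins.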
